A study of Mus musculus with 8 samples.

Results

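Immediate early genes other than those of the AP-1 family were followed in NK cells of lung and spleen from Wt and KO mice. The set was a fixed list of 37 gene symbols, all of which were found among the 48321 symbols of the count tables, and 34 of them had enough reads to be tested together with 12595 genes in all. The data were 8 RNA-seq libraries of freshly sorted CD45+ TCRb- NK1.1+ cells on the C57/Bl6 background, 2 for each of 4 groups: Lung Wt, Lung KO, Spleen Wt and Spleen KO. KO stands for Ccl5ΔPE/ΔPE, a germline deletion of the proximal enhancer of the chemokine gene Ccl5 (Ccl5-PE) in every cell of the animal, so that both organs and all other cell types of KO mice carried it. No group received a treatment, the animals of the study were of mixed sexes, and nothing in the sources ties the 2 libraries of a group to separate animals, so p-values measure only the spread between libraries, which may be technical.

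Immediate early genes are transcribed within minutes of a stimulus without the need for new protein synthesis, through transcription factors such as SRF, CREB and NF-κB that are already present in the cell. They encode transcription factors that carry the response further and also the proteins that end it, among them phosphatases of the MAP kinases, proteins that promote mRNA decay and inhibitors of cytokine signalling. In lymphocytes they are known as reporters of recent receptor or cytokine signalling, and they are also known to respond to tissue dissociation and cell sorting.

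Short promoter motifs give a view of this wiring. The 250 bases before each RefSeq start site (GRCm38.p6) were available for 29 of the 37 members, some with several starts. They were searched on both strands for TGACG, the core of the CREB site, read as CGTCA on the other strand. Also searched were its palindrome TGACGTCA, which contains TGACG, the CArG box bound by SRF, and TATAAA. A gene counted if any of its windows held the motif. No window was at hand for Egr1, Egr3, Klf10, Bhlhe40, Dusp4, Zfp36l2, Ier2 and Sik1. TGACG was found in 14 members (48.3%), against 31.9% of the 8670 tested genes with a window and 19.8% of all 27025 genes with one. TGACGTCA was found in 5 members, Maff, Dusp1, Btg2, Ppp1r15a and Nfkbid (17.2%, against 3.14% and 1.77%). The CArG box was found in 3 members, Egr2, Dusp5 and Zfp36 (10.3%, against 1.37% and 1.62%), and TATAAA in 6 (20.7%, against 4.5% and 8.94%). The 29 members had 41 windows and the 8670 tested genes 11035. Per window the shares were 48.8% against 27.5% for TGACG and 12.2% against 2.64% for TGACGTCA. They were 14.6% against 1.15% for the CArG box and 14.6% against 3.64% for TATAAA. The 4 promoters below are shown because Nr4a1 and Dusp1 had large differences between the groups, Egr2 holds both a CArG box and TGACG, and Btg2 holds the palindrome but differed little. Each is written 5′ to 3′ on the strand of its gene, and capitals mark TGACG or CGTCA, TGACGTCA and, in Egr2, the CArG box. Nr4a1 is at chr15:101266596-101266845 on the plus strand, Dusp1 at chr17:26508473-26508722 on the minus strand, Egr2 at chr10:67537619-67537868 on the plus strand and Btg2 at chr1:134079156-134079405 on the minus strand.
Nr4a1: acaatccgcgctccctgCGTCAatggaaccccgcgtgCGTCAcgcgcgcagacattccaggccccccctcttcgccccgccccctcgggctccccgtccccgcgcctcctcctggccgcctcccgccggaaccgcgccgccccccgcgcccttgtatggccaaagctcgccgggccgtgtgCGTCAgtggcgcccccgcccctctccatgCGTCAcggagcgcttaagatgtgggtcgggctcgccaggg
Dusp1: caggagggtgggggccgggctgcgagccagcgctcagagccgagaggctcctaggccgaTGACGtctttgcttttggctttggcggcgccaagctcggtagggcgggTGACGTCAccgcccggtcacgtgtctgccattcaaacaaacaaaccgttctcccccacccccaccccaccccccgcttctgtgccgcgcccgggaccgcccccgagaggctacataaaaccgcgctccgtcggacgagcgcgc
Egr2: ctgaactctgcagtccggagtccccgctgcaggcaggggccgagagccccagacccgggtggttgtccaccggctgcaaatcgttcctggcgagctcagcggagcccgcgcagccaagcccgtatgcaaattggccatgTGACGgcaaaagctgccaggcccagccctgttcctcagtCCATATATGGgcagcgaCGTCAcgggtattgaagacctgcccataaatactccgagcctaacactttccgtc
Btg2: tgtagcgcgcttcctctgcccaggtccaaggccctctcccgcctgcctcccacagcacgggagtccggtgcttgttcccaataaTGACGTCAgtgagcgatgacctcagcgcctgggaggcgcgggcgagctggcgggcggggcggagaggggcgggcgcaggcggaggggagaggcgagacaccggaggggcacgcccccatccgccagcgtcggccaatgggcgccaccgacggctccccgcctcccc
A match of letters is a description and does not show that a factor binds there.

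Between 3132963 and 26482366 reads were counted on genes per library, and 3 reads corresponded to 0.115 to 0.979 CPM (the read count relative to the TMM-scaled library size). Ccl5 itself was at 16.3% of its Wt level in Lung KO and at 15.7% in Spleen KO, as the labels say. The 12 NK cell markers summed to between 39300 and 55500 CPM, and the 9 T cell markers to between 326 and 634. The 10 markers of lung epithelium, endothelium and stroma summed to 323 and 314 CPM in Lung Wt, rather than the 417 and 453 of Lung KO, and to 65.2 to 75.4 in spleen. Most of the excess in Lung KO was Sftpc, the surfactant protein of alveolar type II cells (152 and 156 against 251 and 282 CPM, and 0 in all spleen libraries), while the epithelial marker Epcam was at most at 0.651 CPM. Pecam1, Cldn5, Sftpb and Pdgfra were also higher in Lung KO, but Scgb1a1 (87.3 and 83.4 against 60.4 and 63.9 CPM), Cdh5, Col1a1 and Col3a1 were lower. The sums in spleen were almost all Pecam1 (64.9 to 74.9 CPM). Of the neutrophil markers 5 of 6 were at 0 in every library. The B cell list summed to 5.44 to 10.1 CPM in lung and 40.8 to 46.3 in spleen. The macrophage, monocyte and dendritic cell list summed to 34.7 to 41.9 in lung and 20.4 to 27.7 in spleen. Of that list Lyz2 was higher in Lung KO (12.2 and 15.8 against 23.5 and 25.2 CPM), while Cd68 and Mrc1 were lower. The platelet and erythroid list summed to 55.3 to 59.2 in lung and 1.99 to 2.99 in spleen. Within this even lung sum the platelet genes Ppbp (21.1 and 20.2 against 4.71 and 6.12 CPM) and Pf4 were lower in Lung KO. Hbb-bs (13.2 and 16.6 against 28.7 and 31.7 CPM), Hba-a1 and Hba-a2 were higher, and Hbb-bt and Itga2b overlapped.

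Taken as a sum, the members were highest in Lung KO and lowest in Spleen KO. They added up to 3773 and 3882 CPM in the Lung Wt libraries, 5291 and 5247 in Lung KO, while the spleen had 3470 and 3494 in Wt and 2825 and 2940 in KO. Without Btg1 and Btg2, which had the most reads, the sums were 1805 and 1873, 3006 and 2966, 1467 and 1471, and 1003 and 1066 CPM. In both forms the groups did not overlap and had the same order. In such bulk libraries, fewer cells that express a gene and less RNA per cell cannot be told apart.

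**Figure D1:**
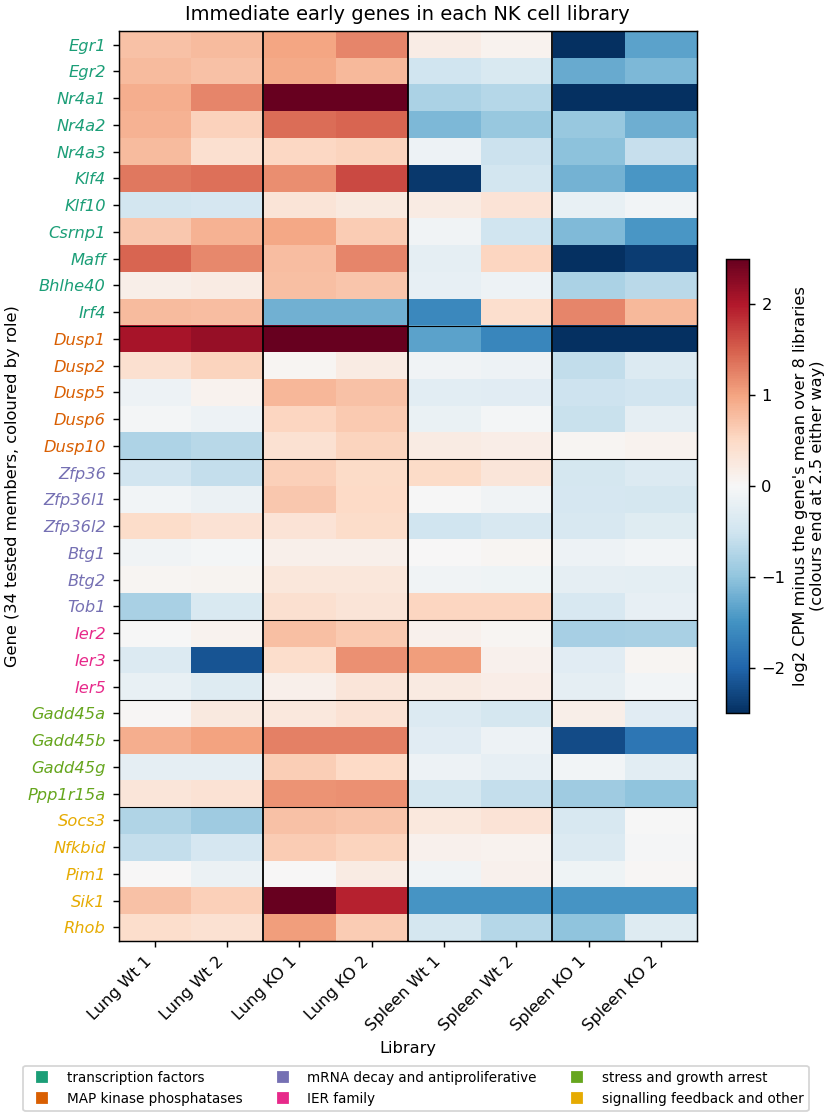
Level of the 34 tested members (rows, coloured by role) in the 8 libraries (columns), as log2 CPM minus the mean of the gene over all libraries. Red is above and blue below that mean; Lung KO is red for most members and Spleen KO blue, while Irf4 is blue in Lung KO and red in Spleen KO.

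The first comparison asks how the loss of Ccl5-PE goes with these genes in lung NK cells. In Lung KO, 22 of the 34 tested members were higher than in Lung Wt and 2, Irf4 and Dusp2, were lower (edgeR quasi-likelihood test, FDR 0.05). Of all genes tested, 29.2% were higher and 26.4% lower (55.6% called in all), so calls were common in this comparison and the count of higher members was above the background while that of lower members was below it. The median log2 fold change was 0.61 over the members and 0.02 over all genes. Beyond a fold of 1.5, 12 members were higher and 1 lower, against 8.46% and 4.31% of all genes (12.8% called in all). Both KO libraries lay above both Wt libraries for 27 members and below them for 2, and the groups overlapped for 5; 76% of all genes did not overlap. Beside this rise, the share of mitochondrial reads was 1.45% and 1.36% in Lung Wt and 0.945% and 0.932% in Lung KO. The summed lung tissue markers were higher and the summed T cell markers lower, as given above. The summed NK cell markers were 55500 and 54100 CPM in Lung Wt against 44000 and 44600 in Lung KO, but they did not move together. The largest part of the sum was Gzma (25400 and 24300 against 18000 and 18000 CPM), and Ncr1, Klrb1c, Klrk1 and Nkg7 were also lower. Tbx21 (216 and 221 against 478 and 480), Il2rb (327 and 345 against 759 and 786), Prf1 and Itga2 were higher. The part of the mitochondrial share and of these markers in the result was not tested.

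In spleen the direction was the other one. In Spleen KO, 19 of 34 members were lower than in Spleen Wt and only Irf4 was higher, where 28.9% of all genes were lower and 28.2% higher (57.1% called in all). The median log2 fold change was -0.32 over the members and 0 over all genes. Beyond a fold of 1.5, 7 members were lower, against 7.03% of all genes (10.1% called in all, 3.09% higher). In all, 25 members were lower in both KO libraries than in both Wt libraries, 3 were higher and 6 overlapped, where 73.8% of all genes did not overlap. The mitochondrial share was 0.792% and 0.797% in Spleen Wt, against 1% and 0.982% for Spleen KO. The summed T cell markers were higher in Spleen KO and the summed markers of ILC1 and immature cells lower, as given above. The summed NK cell markers were 40000 and 39300 against 52500 and 50100 CPM. Of these markers Tbx21 (341 and 331 against 150 and 147 CPM), Il2rb (676 and 676 against 442 and 444) and Prf1 were lower in Spleen KO, while the others were higher. The part of the mitochondrial share and of these markers in the result was not tested. Within Spleen KO, 25 of 34 members were lower in the first library, the shallowest of the series, than in the second, the deepest, with a median difference of -0.11 on the log2 scale (0 over all genes). In the other 3 groups the members split nearly evenly between the 2 libraries.

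**Figure D2:**
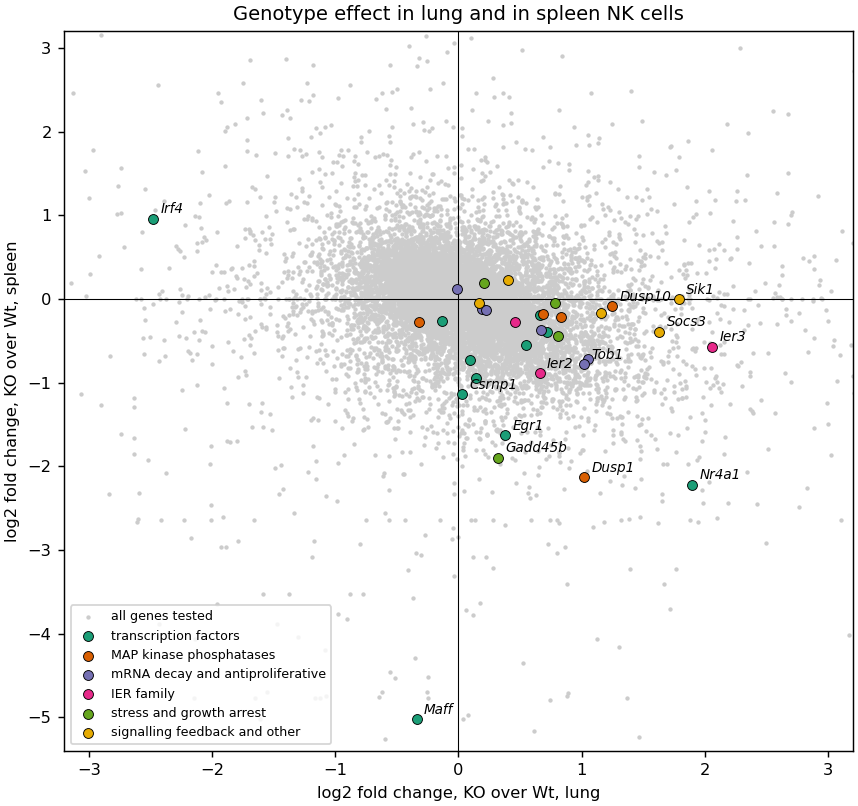
Log2 fold change of KO over Wt in lung (x axis) and in spleen (y axis) for all genes tested (grey) and the members (coloured by role); 419 genes lie outside the axes. Most members lie in the lower right part, Irf4 lies in the upper left, and the value of Maff in spleen rests on 1 read in Spleen KO.

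The KO effects in lung and spleen share no library, so that the difference between them could be tested. It was positive, that is higher in lung than in spleen, in 25 members and negative in 1, Irf4, with a median of 1.10 (0.03 over all genes). Of all genes, 32.5% were positive and 29% negative (61.6% called in all). Of the 15 members called in both organs, 13 were higher in lung and lower in spleen, Irf4 was lower in lung and higher in spleen, and Dusp2 was lower in both, a call that in spleen depended on the settings given with that gene. Opposite calls were common in general: of the 4367 genes called in both organs, 77.9% had opposite signs, and 41% were higher in lung and lower in spleen, against 86.7% of the members.

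Transcription factors came first among the 37, with 12 members, 11 of them tested. In lung 4 were higher and 1 lower, and in spleen 1 was higher and 7 lower. Here and for the roles that follow, the shares of all genes given above apply, 29.2% higher and 26.4% lower in lung and 28.2% and 28.9% in spleen, and with so few genes a role no count was tested against them. Nr4a1 (Nur77, an orphan nuclear receptor induced by antigen receptor signalling; ENSMUSG00000023034, chr15:101254269-101274795, GRCm38), whose promoter is printed above, had 43.9 and 55.2 CPM in Lung Wt, 169 and 186 in Lung KO, while the spleen had 13.5 and 14.1 in Wt and 1.63 and 3.14 in KO. The 4 groups did not overlap. The log2 fold change was 1.90 ± 0.08 in lung (standard error here and below, n = 2 libraries per group, adjusted p = 2.2e-21 by edgeR) and -2.22 ± 0.20 in spleen (6.6e-12), the former 3.73-fold up. Without the second Spleen KO library the spleen value was -3.08 (2.5e-07, edgeR). Its relatives did not follow in both organs. Nr4a2 had 38.5 and 31.3 CPM in Lung Wt and 55.7 and 57.8 in Lung KO, a rise of 0.66 ± 0.10, and between 8.85 and 10.8 CPM in the spleen, with overlapping groups. Nr4a3, at 3.92 to 14.3 CPM, passed the test in neither organ.

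The zinc finger factors of the EGR family, which act downstream of MAP kinase signalling, moved in spleen. Egr1 had 8.49 and 7.95 CPM in Spleen Wt against 0.979 and 2.83 for Spleen KO, the first of these from 3 reads. The log2 fold change was -1.63 ± 0.23 (adjusted p = 1.7e-07, edgeR), and -3.02 without the second Spleen KO library (1.4e-05), while in lung 12.6 and 13.2 CPM stood against 15.1 and 17.7, a difference of 0.38 that missed the threshold (0.053) although the groups did not overlap. Without 1 library, the first Lung KO library or any 1 spleen library, it passed (0.031 to 0.048). Egr2 fell in spleen from 8.49 and 9.23 to 4.90 and 5.48 CPM (-0.73 ± 0.18), a call that was lost without the second Spleen Wt library (adjusted p = 0.056, edgeR), and had 20.5 to 23.5 CPM in lung with no called difference. Egr3 had 1 read in all 8 libraries together and was not tested.

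Maff, a small MAF protein that lacks an activation domain, had 0 reads and 1 read in the Spleen KO libraries against 4 and 16 in Spleen Wt, or 0 and 0.0383 against 0.999 and 1.87 CPM. Spleen KO was thus at 2.15% of Spleen Wt, with an exact 95% interval of 0.0519% to 13.5% that covers counting error only. In lung it had 3.73 and 3.11 CPM in Wt and 2.25 and 3.13 in KO and was not called. Csrnp1, a nuclear protein induced by AXIN1, had 9.57 and 10.9 against 11.7 and 9.25 CPM in lung, and fell in spleen from 5.5 and 4.09 to 2.61 and 1.99 CPM (-1.14 ± 0.27). That call was lost without the second Spleen KO library (-0.80, adjusted p = 0.22, edgeR). Csrnp1 and Maff each carry TGACG in a promoter window.

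Bhlhe40 (DEC1), a transcriptional repressor that is needed for cytokine output of lymphocytes, was the most abundant transcription factor of the list per kilobase of transcript, at 104 CPM per kb in Lung Wt. It had 315 and 330 CPM in Lung Wt, 481 and 464 in Lung KO, while the spleen had 247 and 262 in Wt and 164 and 179 in KO. The groups stood apart in this order, Lung KO, Lung Wt, Spleen Wt and Spleen KO, with log2 fold changes of 0.55 ± 0.04 in lung and -0.55 ± 0.05 in spleen. Klf10, a TGF-β-inducible zinc finger factor, rose by 0.72 ± 0.06 in lung and fell by 0.39 on the log2 scale in spleen. Klf4 was low (0 to 3.81 CPM) and was called in neither organ.

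Irf4, a factor induced by antigen receptor signalling, went against most others. It had 2.36 and 2.33 CPM in Lung Wt (19 and 9 reads) and 0.409 and 0.408 in Lung KO (2 and 3 reads), and Lung KO was at 17.4% of Lung Wt (exact 95% interval 5.23% to 45.5%, counting error only). The log2 fold change was -2.48 ± 0.61 (adjusted p = 0.00071, edgeR). In spleen it had 0.25 and 1.75 CPM in Wt and 3.26 and 2.37 in KO, with an adjusted p of 0.037 by edgeR that was lost without the first Spleen Wt library (0.33) or without either Spleen KO library (0.068 and 0.11), and also with DESeq2 (0.2) or with library totals as the scaling (0.051). Without the second Spleen Wt library the spleen log2 fold change was 3.24 (0.0058, edgeR). With 1 to 62 reads in a spleen library, the order of the spleen groups was not secure at this depth.

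**Figure D3:**
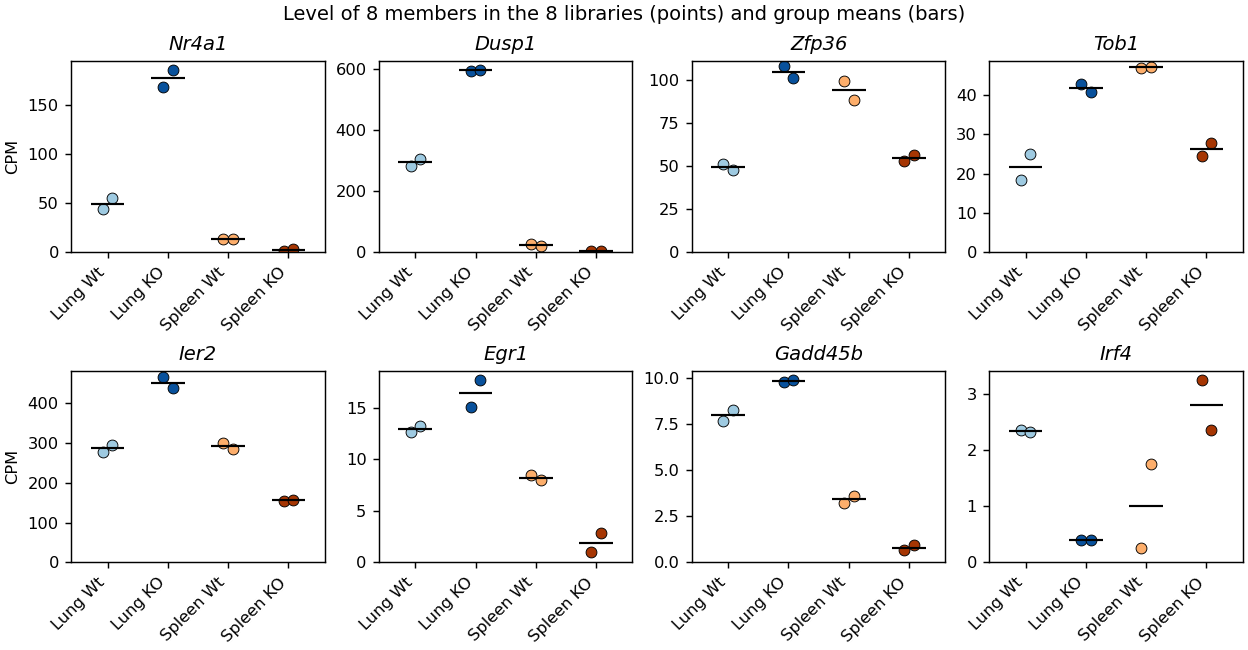
CPM of 8 members in the 8 libraries (points) with the mean of each group (bars), each panel on its own linear axis from 0. Nr4a1, Dusp1, Zfp36, Tob1 and Ier2 were above Wt in Lung KO and below Wt in Spleen KO, Egr1 and Gadd45b were called lower in Spleen KO only, and Irf4 had the reverse order.

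The MAP kinase phosphatases, which remove phosphate from ERK, p38 and JNK, were 6 members, 5 of them tested. In lung 4 were higher and 1 lower, and in spleen 3 were lower and the others were not called. Dusp1 (MKP-1, a nuclear phosphatase of p38 and JNK; ENSMUSG00000024190) had 283 and 306 CPM in Lung Wt, 594 and 596 in Lung KO, while the spleen had 26.7 and 21.7 in Wt and 4.24 and 5.48 in KO. All 4 groups stood apart. It was 2.03-fold higher in Lung KO than in Lung Wt (log2 1.02 ± 0.05, adjusted p = 2.1e-20, edgeR) and lower in Spleen KO than in Spleen Wt (log2 -2.13 ± 0.14, 4.1e-15). Its TGACGTCA site is seen in the promoter above. Its exons share 11 bases with Ergic1 on the other strand, whose reads came to 24.5% of those of Dusp1, and the strand setting of the count is not given in the sources used here.

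Dusp10 (MKP-5) had 7.83 and 8.29 CPM in Lung Wt against 17.6 and 20.0 for Lung KO (1.25 ± 0.16), and 14.0 to 15.5 CPM in the 4 spleen libraries with no called difference. Dusp5, an ERK phosphatase of the nucleus, had 67.1 and 77.5 against 130 and 122 CPM in lung (0.83 ± 0.07), and 60.9 and 60.1 against 50.6 and 51.9 in spleen. Its exons share 547 bases with AC137853.2 on the other strand. The spleen difference, -0.22, was called but was lost without the second Spleen Wt or the second Spleen KO library (adjusted p = 0.079 and 0.13, edgeR), with DESeq2 (0.14) and after removal of the GC trend described further on (-0.03). Dusp6, the ERK phosphatase of the cytoplasm, rose in lung by 0.69 ± 0.10. Dusp2 (PAC-1) was called lower in both organs, with log2 fold changes of -0.32 ± 0.08 and -0.27 ± 0.08 and a tested difference between the effects of -0.05 ± 0.12. The spleen call was lost without the second Spleen Wt library (adjusted p = 0.052, edgeR) and with DESeq2 (0.077). After removal of the GC trend Dusp2 had -0.61 in lung and 0.00 in spleen, and the difference of -0.61 was then called (1.5e-05, edgeR), so that no member was lower in both organs. Dusp4 had 2 reads in all, both in a Lung Wt library.

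Of the 6 regulators of mRNA decay and proliferation, 5 were higher in lung and 5 lower in spleen, and the exception, Zfp36l2, passed in neither. Zfp36 (tristetraprolin, which brings AU-rich mRNAs to the deadenylase) had 51.3 and 47.7 CPM in Lung Wt, 108 and 101 in Lung KO, while the spleen had 99.7 and 88.5 in Wt and 53.2 and 56.8 in KO. The levels of Lung KO lay closest to those of Spleen Wt, and those of Lung Wt to those of Spleen KO. The log2 fold changes were 1.05 ± 0.08 in lung and -0.72 ± 0.07 in spleen. Tob1, an antiproliferative partner of the CCR4-NOT deadenylase, had the same form, with 18.4 and 24.9, 42.8 and 40.8, 47.0 and 47.2, and 24.5 and 27.9 CPM in the same order of groups. Its changes were 1.02 ± 0.12 and -0.78 ± 0.09. Zfp36l1 rose by 0.67 ± 0.08 in lung and had -0.37 ± 0.08 in spleen (without the second Spleen KO library, adjusted p = 0.055, edgeR), but it shares 1672 exonic bases with Gm26669 on the other strand, so its value is uncertain. Btg1 and Btg2, antiproliferative genes expressed in resting lymphocytes, were the most abundant members in Lung Wt (272 and 230 CPM per kb) and moved least among those called in both organs, Btg1 by 0.19 ± 0.04 and -0.12 ± 0.04 and Btg2 by 0.22 ± 0.04 and -0.13 ± 0.04. In spleen the call of Btg1 was lost without the second Spleen Wt or the first Spleen KO library (adjusted p = 0.057 and 0.061, edgeR) and that of Btg2 without the second Spleen KO library (0.062).

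In the IER family, named for its immediate early response, Ier2 was the abundant one. It had 277 and 296 CPM in Lung Wt, 465 and 437 in Lung KO, while the spleen had 301 and 286 in Wt and 155 and 158 in KO. The Wt groups of the 2 organs overlapped while the KO groups lay on either side of them, with 0.66 ± 0.05 in lung and -0.89 ± 0.05 in spleen. Ier5 followed with 0.46 ± 0.09 and -0.27 ± 0.08, the latter not called by DESeq2 (adjusted p = 0.092). Ier3, which limits apoptosis, had 0.622 and 0 CPM in Lung Wt (5 reads and 0 reads) and 1.23 and 2.18 in Lung KO. This gave a ratio of 4.28 with an exact 95% interval of 1.58 to 14.5 (counting error only), and the edgeR call was lost without the second Lung Wt library (1.5, adjusted p = 0.069) and with DESeq2 (0.1). Without the first Lung Wt library no read was left in Lung Wt and no fold is given. Ier5l had 0 to 5 reads per library, with 5 in each Lung KO library, and was not tested.

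Among the 4 genes of stress and growth arrest, Ppp1r15a and Gadd45g were higher in lung, and Ppp1r15a and Gadd45b lower in spleen. Ppp1r15a (GADD34, which restores translation after stress by dephosphorylating eIF2α) had 58.3 and 60.9 CPM in Lung Wt, 103 and 104 in Lung KO, while the spleen had 34.5 and 31.0 in Wt and 25.5 and 23.4 in KO. It changed by 0.81 ± 0.07 and -0.44 ± 0.10, the latter lost without the second Spleen KO library (-0.34, adjusted p = 0.13, edgeR). Gadd45b, a stress sensor that activates p38 through MTK1, had 7.71 and 8.29, 9.82 and 9.93, 3.25 and 3.62, and 0.653 and 0.958 CPM in the same order of groups. The groups stood apart in both organs, but only the fall in spleen was called (-1.90 ± 0.33, against 0.32 ± 0.20 in lung with an adjusted p of 0.17 by edgeR). Gadd45g rose in lung by 0.78 ± 0.09, and Gadd45a, which shares 337 exonic bases with E230016M11Rik on the other strand, was called in neither organ.

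The 5 genes of signalling feedback were called only in lung, 4 of them higher, though the difference between the organs was itself called in only 2, Socs3 and Nfkbid. Socs3, the inhibitor of cytokine receptor signalling through STAT3, had 1.74 and 1.55 CPM in Lung Wt, 5.32 and 5.17 in Lung KO, while the spleen had 3.75 and 3.97 in Wt and 2.29 and 3.06 in KO (1.63 ± 0.33 in lung). Nfkbid, an atypical IκB of the nucleus, had 5.72 and 6.48, 13.7 and 13.1, 9.49 and 9.35, and 6.86 and 8.62 CPM in that order (1.16 ± 0.19 in lung). Sik1, a CREB-induced kinase that acts on the CREB coactivators, had 0.87 and 0.777 CPM in Lung Wt, 3.89 and 2.31 CPM for Lung KO, but 0 reads in all 4 spleen libraries. Its lung call (1.79 ± 0.48) was lost without the first Lung Wt or the first Lung KO library (adjusted p = 0.057 and 0.08, edgeR) and with DESeq2 (0.11). Rhob, a small GTPase, rose by 0.40 ± 0.13 in lung, a value that was 0.22 and not called without the first Lung KO library, and which was also not called with DESeq2 (adjusted p = 0.14) or after removal of the GC trend (0.19 on the log2 scale). Pim1, a kinase induced by STAT factors, was between 51.3 and 65.4 CPM everywhere and was called in no comparison.

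The second question is how far the organs differ within a genotype. In Wt, 19 members were higher in lung than in spleen and 8 lower, where 27.7% and 29.3% of all genes were called (57% in all), with a median of 0.42. In KO, 32 members were higher in lung and only Irf4 was lower, where 33.9% and 31.7% of all genes were called (65.6% in all), with a median of 1.03. Beyond a fold of 1.5 the counts were 12 and 4 in Wt (7.09% and 9.09% of all genes, 16.2% called in all) and 21 and 1 in KO (12.6% and 6.8%, 19.4% in all). Dusp1 was 12.5-fold higher in lung in Wt and 111-fold in KO, and Nr4a1 3.43-fold and 59.7-fold, the last of which was 6.76 on the log2 scale without the second Spleen KO library. Beside these differences, the summed lung tissue markers were at 314 to 453 CPM in lung and 65.2 to 75.4 in spleen, the latter almost all Pecam1. The platelet and erythroid markers were at 55.3 to 59.2 in lung and 1.99 to 2.99 in spleen. The B cell markers were at 5.44 to 10.1 CPM in lung and 40.8 to 46.3 in spleen, and the T cell markers at 326 to 434 and 549 to 634. The mitochondrial share was 1.45% and 1.36% against 0.792% and 0.797% between the Wt groups, and 0.945% and 0.932% against 1% and 0.982% between the KO groups. Their part in the result was not tested. The paper describes enzyme digestion of lungs in its tumour experiments, and mashing of both organs for flow cytometry. How tissue was prepared for these libraries is not stated. Any difference in preparation between the organs cannot be told apart from the organ itself. The members lower in Wt lung were led by Tob1 (-1.19 ± 0.11), Socs3 (-1.21 ± 0.35, lost without the second Spleen Wt library at an adjusted p of 0.059 by edgeR), Dusp10 (-0.94 ± 0.17) and Zfp36 (-0.89 ± 0.08), and each of these was higher in lung in KO, Dusp10 by 0.41 ± 0.12, which was lost without the second Lung KO or the second Spleen KO library (adjusted p = 0.15 and 0.11, edgeR). The KO call of Socs3 (0.82 ± 0.24) was lost with DESeq2, after removal of the GC trend and at FDR 0.001. Ier3, 1 of the 32 higher in KO (1.06 ± 0.46, adjusted p = 0.042, edgeR), kept its call in only 9 of 20 alternatives and lost it with DESeq2. Sik1, with no read in spleen, was at least 3.52-fold higher in lung in Wt and at least 28.6-fold in KO, against a floor of 3 reads over the spleen group.

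**Figure D4:**
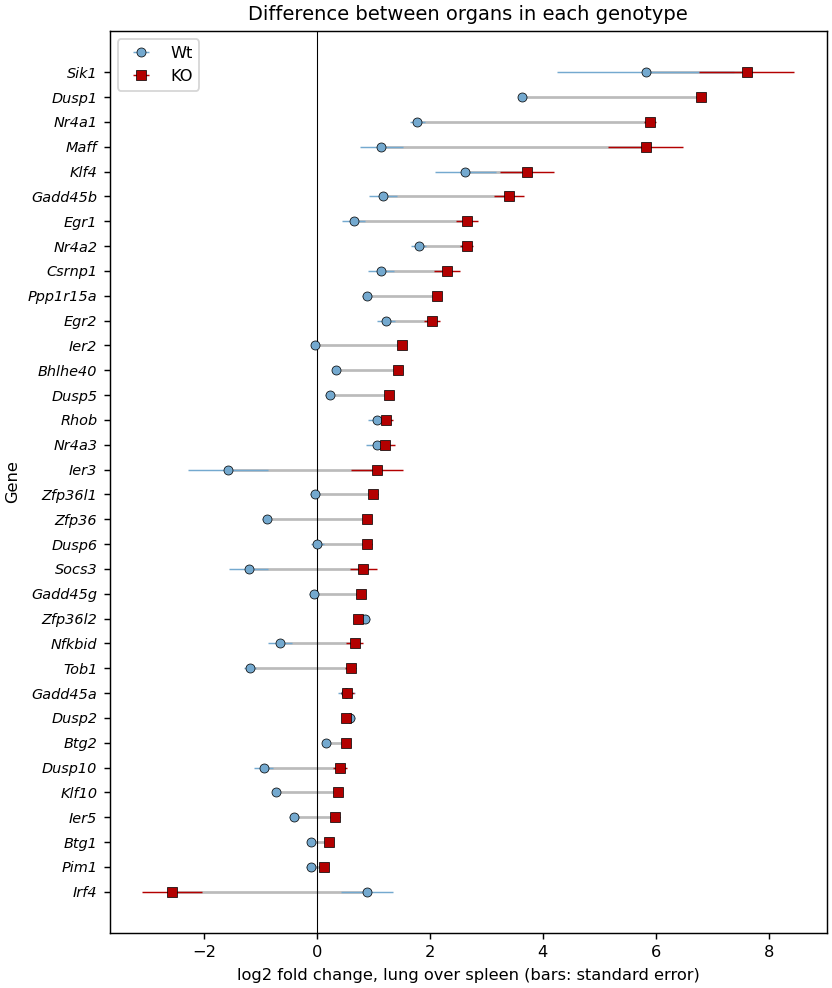
Log2 fold change of lung over spleen for each tested member in Wt (circles) and KO (squares), with standard errors. In KO all members but Irf4 lie to the right of 0; the fitted values of Sik1 and, in KO, Maff stand against 0 or 1 read in spleen and depend on the prior count.

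By the order of group means, Lung KO was the highest group in 28 of the 34 members, where it was the highest in 25.2% of all genes, and Spleen KO was the lowest in 19 (27.7% of all genes). Sik1, with no read in spleen, counts among the 28, but its spleen groups are tied and it enters no full order. The most frequent full order was Lung KO, Lung Wt, Spleen Wt, Spleen KO, with 13 members (5.47% of all genes). It was followed by Lung KO, Spleen Wt, Spleen KO, Lung Wt with 8 members (5.51%). Neighbours in these orders often did not differ beyond their spread, as the 2 Wt groups of Ier2 show. The orders rest on unweighted means of log2 CPM and can differ from the fit. Rhob counts among the 13 although its fitted KO effect in spleen was 0.23 ± 0.16 (not called).

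Members with and without TGACG in the promoter window were set side by side. The 14 tested members with it had a median lung over spleen log2 fold change of 1.10 in Wt and 2.08 in KO, against -0.04 and 0.80 in the 14 without it. For KO over Wt the medians were 0.44 and 0.57 in lung, and -0.58 and -0.23 in spleen. These are descriptions of few genes with no test. As a class the members were compact. The shares that follow cover genes whose longest transcript has an annotated 3′ UTR, which were 33 tested members, without Dusp1. Of these 72.7% had at most 4 exons in that transcript (21.7% of such tested genes). The AU-rich element TATTTAT was found in the 3′ UTR of 48.5% of them (32.8%) and ATTTA in 87.9% (74.2%).

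The members were also rich in GC, and the KO effects followed GC content across all genes. The median GC content was 54.5% in the members and 48.8% in all tested genes, and 27 of 34 members were above the latter. Spearman's rho of GC content and KO effect was 0.29 in lung and -0.27 in spleen over 12496 genes, a description without a test since genes are not replicates. Among the 34 members it was 0.06 and -0.27. After removal of the trend with GC in each library, 21 members were higher and 3 lower in lung, 4 higher and 17 lower in spleen, and the medians were 0.42 and -0.27 (0.03 and -0.02 over all genes). Of all genes, 29.6% were then higher and 24.2% lower in lung, and 26.2% and 29.6% in spleen. The members lower in lung were Irf4 (-2.43), Dusp2 (-0.61) and Zfp36l2 (-0.18), and those higher in spleen were Irf4 (0.91), Rhob (0.41), Zfp36l2 (0.26) and Gadd45g (0.23). Nr4a1, Dusp1, Zfp36 and Tob1 kept their calls and directions in both organs.

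**Figure D5:**
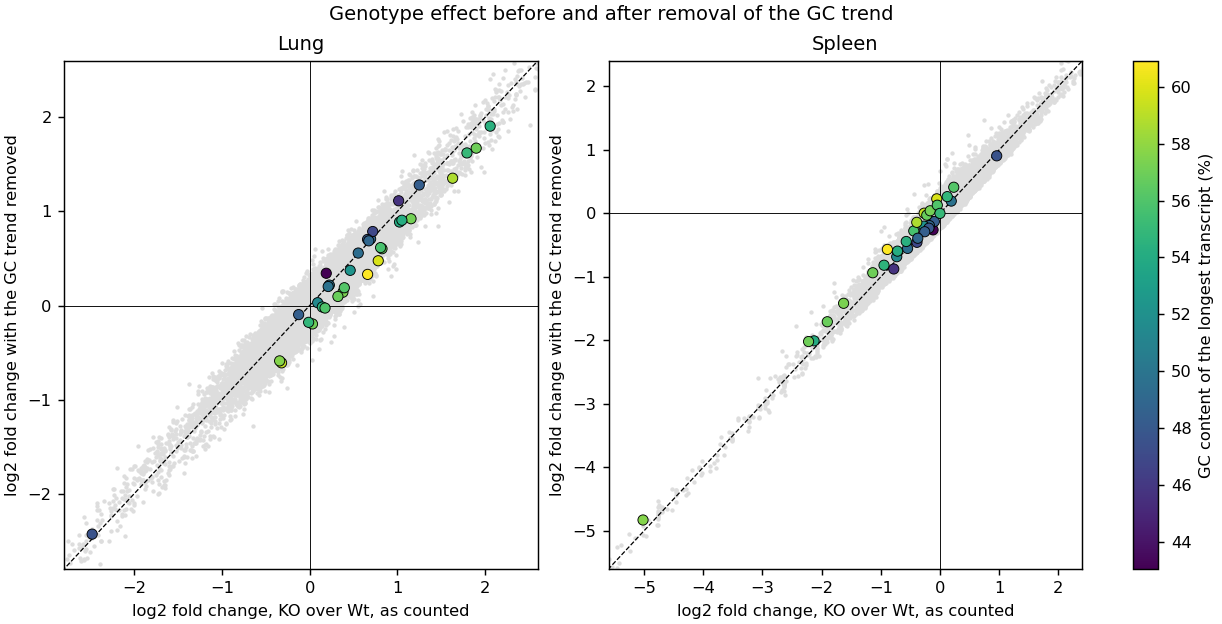
Log2 fold change of KO over Wt as counted (x axis) and after removal of the GC trend (y axis), in lung (left) and spleen (right), for all genes (grey) and members (coloured by GC content); the dashed line marks equal values. In both organs the median of the members moved towards 0, from 0.61 to 0.42 in lung and from -0.32 to -0.27 in spleen.

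The pathways upstream and downstream were followed with a list of 58 genes, 56 of them tested. They were chosen for their roles, but with earlier results of these data known. In lung 24 were higher and 17 lower in KO, and in spleen 15 were higher and 21 lower, with medians of 0.14 and -0.07. As shares these were 42.9% and 30.4% in lung and 26.8% and 37.5% in spleen, where 29.2% and 26.4% of all genes were called in lung and 28.2% and 28.9% in spleen. The groups of genes that follow are small, and their counts were not tested against these shares. Of the 12 genes of the ERK cascade, 8 were higher and 3 lower in lung, and 2 higher and 6 lower in spleen. Of the 7 kinases of the p38 and JNK pathways, 5 were higher in lung and the others not called, and 1 was higher and 3 lower in spleen. The partners of CCR4-NOT, through which Zfp36 and Tob1 act, were split, with 4 higher and 5 lower of 10 in lung and 4 and 2 in spleen. The 12 tested SRF and CREB factors were also split, with 3 higher and 5 lower in lung and 5 and 4 in spleen. Their medians were -0.08 and 0.13. Of the 9 genes of calcineurin, NFAT and MEF2, 3 were higher and 2 lower in lung, and 3 and 4 in spleen. Of the 6 tested genes of other feedback inhibitors, 1 was higher and 2 lower in lung, and 0 and 2 in spleen.

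The gene of this list with the largest change in both organs was Crtc2, a coactivator of CREB, at 1.33 ± 0.23 in lung and -1.68 ± 0.22 in spleen. In lung it was followed by Cnot3, a subunit of the deadenylase complex (0.99 ± 0.16), and Map2k4, the kinase of JNK (0.90 ± 0.08), and the lowest were Atf1 (-0.96 ± 0.12), a CREB relative, Mkl2 (-0.72 ± 0.08), a coactivator of SRF, and Spry2 (-0.59 ± 0.07), an inhibitor of receptor kinase signalling. In spleen the highest were Mapk8 (JNK1, 0.80 ± 0.13), Nfatc2 (0.63 ± 0.13) and Cnot6 (0.58 ± 0.07), and among the lowest besides Crtc2 was Map2k1 (-0.59 ± 0.07), the kinase of ERK. Mapk8 and Nfatc2 were higher in KO in both organs, unlike Map2k1, which was higher in Lung KO by 0.25.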

How the data were processed

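RNA-seq libraries of sorted NK cells (50 bp reads) were aligned by the authors to mm10 with HISAT2 2.1.0 and counted on genes with HTSeq 0.11.1, per the submitters' processing notes, and raw read counts per gene symbol were deposited. The strand setting and the annotation of the count are not given in the sources used here. Besides the members named with such an overlap above, others share exonic bases with a gene on the other strand. These are Pim1 (488 bases), Csrnp1 (224), Zfp36 (125), Bhlhe40 (118), Zfp36l2 (105) and Ppp1r15a (12). HTSeq's rows of uncounted reads were left out (reads without a feature were 52.7% to 55% of the total). Groups came from the sample labels. In R 4.3.3, edgeR 4.0.16 (filterByExpr, TMM, 1 mean per group over all 8 libraries, quasi-likelihood test, p-values adjusted by Benjamini-Hochberg over 12595 genes, FDR 0.05; glmTreat for folds beyond 1.5) gave the calls, with standard errors from the F statistic. The common coefficient of variation was 2.5%. With 2 against 2 libraries, the smallest exact permutation p is 0.333. On simulated counts for KO against Wt in lung (12058 genes, 200 changed), 63% of 1.5-fold and 99% of 3-fold changes were recovered and 5.26% of calls were false. The simulated spread was that fitted to these libraries, and only genes above a minimum mean count were changed. These rates therefore do not carry over to genes with few reads or to spread between animals. Nor do they carry over to data in which 55.6% of genes are called. Alternatives were DESeq2 1.42.0, other tests, scalings and filters, a GC offset, assumed spreads, a replicate block and leaving out each library. Gene models were GENCODE M21 and promoters RefSeq (GRCm38.p6). All members were named, with values per library for the 12 largest called changes per organ and for untested members; of the pathway list the 3 highest and 3 lowest called genes per organ were named, except 1 that is not reported here. The members and lists were chosen with earlier results of these data known. Intervals and floors cover counting error only. The GC offset combined with the 1.5-fold rule or an assumed spread was added after the data were seen.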

Additional observations from a re-analysis of the deposited data

Results flagged for a closer look

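In 26 of the 34 tested members the KO effect differed between lung and spleen by a test of the difference itself (edgeR quasi-likelihood test, FDR 0.05), where 61.6% of all genes did. The values below are the log2 KO effect in lung minus that in spleen. The difference was at least 2 in Maff (4.68), Nr4a1 (4.12), Dusp1 (3.15), Ier3 (2.63), Gadd45b (2.23), Socs3 (2.02) and Egr1 (2.01). It was between 1 and 2 in Tob1 (1.80), Zfp36 (1.77), Ier2 (1.55), Dusp10 (1.34), Nfkbid (1.32), Ppp1r15a (1.25), Csrnp1 (1.17), Klf10 (1.11), Bhlhe40 (1.10), Zfp36l1 (1.05) and Dusp5 (1.05), and below 1 in Dusp6 (0.87), Nr4a2 (0.85), Gadd45g (0.84), Egr2 (0.82), Ier5 (0.74), Btg2 (0.36) and Btg1 (0.31). It was negative in Irf4 (-3.44). The value of Maff rests on 1 read in Spleen KO, and those of Irf4, Ier3 and Socs3 on 5, 5 and 20 reads in their lowest group. With a single library left out, the differences of Nr4a2 (0.59, adjusted p = 0.076, without the second Spleen KO library), Csrnp1 (0.82, 0.2, without the same library) and Ier3 (2.20, 0.061, without the first Spleen Wt library) were no longer called by edgeR. DESeq2 did not call those of Csrnp1 (1.14, adjusted p = 0.072), Egr2 (0.83, 0.052) and Ier3 (2.96, 0.078). With the GC offset, which removes the trend with GC content in each library, those of Gadd45g (0.25, adjusted p = 0.069, edgeR) and Csrnp1 (0.74, 0.053) were not called, nor with the replicate block added (0.25 and 0.68). Without the second Spleen KO library the difference was 4.97 in Nr4a1 and 3.40 in Egr1, and without the second Spleen Wt library -5.72 in Irf4, all called.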

How the results depend on the processing

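The counts of members called higher in Lung KO (22), lower in Spleen KO (19) and with a positive difference between the organs (25) stayed within 1.5 times of these values under the likelihood ratio test, DESeq2, the other scalings and filters, FDR 0.001 and the GC offset. The fit of only the 4 libraries of an organ gave 22 and 2 in lung (29.4% and 27.6% of all genes) and 1 and 18 in spleen (29.2% and 29.7%). It gives no difference between organs. Scaling by library totals put the median of all genes at 0.11 in lung, 0.19 for the difference and -0.12 for lung over spleen in Wt (0.02, 0.03 and -0.01 with TMM). DESeq2 called 35.8% of all genes in lung and 33.1% in spleen (55.6% and 57.1% with edgeR). At an assumed coefficient of variation of 0.2, the counts were 9 higher and 1 lower in lung and 0 and 6 in spleen. Of all genes, 8.17% and 4.19% were then called in lung and 2.86% and 6.22% in spleen. The difference between the organs was positive in 15 members (11.2% of all genes). Lung over spleen gave 12 higher and 3 lower in Wt (7.01% and 8.96%) and 19 higher in KO (12.1%). Beyond 1.5-fold the counts were 12 and 1 in lung, 0 and 7 in spleen, 12 and 4 in Wt and 21 in KO. The shares of all genes for this rule are given above. With the GC offset, 4 were higher in spleen and 3 differences were negative (26.2% and 26% of all genes). With the block as well these were 3 and 3 (26.2% and 25.8%). With the GC offset and the 1.5-fold rule 7 were higher and 1 lower in lung, where 7.08% and 3.8% of all genes were. In spleen the counts were 0 and 6 (2.99% and 6.03%), and 16 differences were positive (15.5%). For lung over spleen 4 were lower in Wt (8.53%) and 19 higher in KO (11.3%). With the GC offset and the assumed 0.2, in the same order, they were 7 and 1 (6.92% and 3.52%), 0 and 6 (2.73% and 5.31%), 10 (9.07%), 2 (8.38%) and 19 (10.8%). With at least 10 counts in every library 1 was lower in lung (28.5% of all genes), 0 higher in spleen (30.5%) and 0 negative (32.4%). For lung over spleen 12 were then higher in Wt (28.3%) and 0 lower in KO (33.8%). At FDR 0.001 the counts were 1 lower in lung (15% of all genes), 0 higher in spleen (16.7%) and 5 lower in Wt (18.3%). With DESeq2 they were 0 higher in spleen (16.2%) and 5 lower in Wt (19%). Library totals gave 0 higher in spleen (23.6%), and an assumed spread of 0.1 gave 1 lower in lung (15%). Leaving out each library gave 21 to 23 higher and 2 lower in lung, 0 to 1 higher and 15 to 19 lower in spleen. Gadd45g in spleen turned to 0.23 with the GC offset and 0.24 with the block as well, and Ier2 for lung over spleen in Wt to 0.20 in both.

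In all of the alternatives chosen at the start that could be fitted, 8 of 24 calls were kept in lung (Nr4a1, Irf4, Dusp1, Dusp10, Zfp36, Tob1, Socs3 and Nfkbid) and 6 of 20 in spleen (Egr1, Nr4a1, Maff, Dusp1, Ier2 and Gadd45b). Libraries with equal replicate numbers deviated together weakly in spleen (r = 0.17 over 5103 genes) and not in lung (-0.01). Nothing in the labels ties the numbers, and with 2 pairs an organ they were not taken as pairs. With the replicate block the counts were 22 and 2 in lung, 1 and 20 in spleen and 26 and 1 for the difference. Of all genes these were 29% and 26.6%, 28.6% and 29.3%, and 32.4% and 28.9%.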
